A study of Homo sapiens with 22 samples.

Results

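The human genes of glucose use described here are 35 listed symbols out of the 58735 genes in the table of human reads. They encode glucose and lactate transporters, the enzymes of glycolysis with the kinases that set their pace, the gate from pyruvate into the mitochondrion, and the pentose phosphate pathway. The genes were listed by name, with earlier results of these data known. All 35 symbols matched 1 gene each, and 34 reached 1 FPKM (fragments per kilobase of transcript, scaled to the reads of the library) in at least 3 libraries and were tested. The exception was SLC16A1.

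The samples were bulk RNA libraries of xenograft tumours grown from H3122, a human lung adenocarcinoma line with an ALK fusion. The tumours grew in hHGF-NSG mice, which carry humanized HGF, the ligand of the MET receptor, or in NSG mice, an immunodeficient strain. Each host held tumours that were therapy-naive, treated for 2 weeks or treated for 6 weeks with alectinib, an inhibitor of the ALK kinase. The human table held 3, 4 and 3 libraries of hHGF-NSG tumours in that order of time and 4, 4 and 4 of NSG tumours. All groups share 1 cell line and hosts without a working adaptive immune system, so they stand for 1 tumour genotype. The labels do not say that libraries came from separate animals, so p-values measure only the spread between these libraries.

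Glycolysis splits glucose into pyruvate in the cytosol and yields ATP and NADH. Lactate dehydrogenase turns pyruvate into lactate and restores NAD+, which lets the pathway run on, and many tumours and hypoxic cells lean on this route. Pyruvate dehydrogenase instead feeds pyruvate to the mitochondrion, and its kinases shut it down. The pentose phosphate pathway branches off after hexokinase and gives NADPH and ribose for biosynthesis. Several steps are run by alternative isoforms from separate genes, some of which are classical targets of the hypoxia factor HIF-1 and of MYC.

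The libraries held 10688632 to 19065656 human reads. Human HGF had 13 to 79 reads in each hHGF-NSG library and 0 to 6 in NSG libraries other than the library labelled NSG naive replicate 1, which had 43. Without it, all 68 changes of the tested genes in treated against naive NSG tumours kept their direction and their side of the threshold, with shifts of at most 0.08 on the log2 scale. The 32 changes of isoform shares against naive tumours did so as well, with shifts of at most 0.32 percentage points. All 6 epithelial and lung tumour markers passed 1 FPKM in every group. Their summed level was 2563 to 3872, 1184 to 1476 and 1314 to 1679.9 FPKM in naive, 2-week and 6-week hHGF-NSG libraries and 2497 to 3938, 1382 to 1644 and 1262 to 1506 FPKM in NSG libraries. The 4 keratins carry this sum. EPCAM, an epithelial adhesion molecule, had 223 to 344 FPKM in treated and 291 to 349 FPKM in naive libraries, and NKX2-1, a lung lineage factor, had 203 to 382 FPKM in treated and 64.6 to 104 FPKM in naive libraries. No leukocyte, muscle, red cell or fat marker reached 1 FPKM in any library, and summed levels were at most 1.1 FPKM per list. Of 6 fibroblast markers 2 reached 1 FPKM in naive groups and 1 in treated groups, while DCN and PDGFRB stayed at or below 0.0219 FPKM. COL1A1 had 8.89 to 102 FPKM in naive and 4.68 to 14.9 FPKM in treated libraries. LUM had 9.23 to 17.3 FPKM in naive libraries and at most 0.827 FPKM in treated ones. The fibroblast sum was 41.9 to 112, 6.37 to 8.32 and 12.6 to 16.4 FPKM in naive, 2-week and 6-week hHGF-NSG libraries and 26.8 to 42.1, 8.54 to 11.6 and 5.15 to 14.3 FPKM in NSG libraries. The endothelial sum was 4.89 to 7.63, 5.91 to 7.27 and 7.94 to 11.3 FPKM in naive, 2-week and 6-week hHGF-NSG libraries and 4.57 to 8.14, 7.17 to 11.3 and 7.71 to 19.9 FPKM in NSG libraries, while PECAM1 stayed at or below 0.0616 FPKM. CDH5, a further endothelial marker, had 1.24 to 3.32 FPKM across the libraries. KDR, a VEGF receptor, had 5.69 to 17.2 FPKM in 6-week and 1.68 to 4.31 FPKM in naive NSG libraries. The share of mouse reads among all reads averaged 9.74%, 12.9% and 27.3% in naive, 2-week and 6-week hHGF-NSG tumours and 7.94%, 15.7% and 19.2% in NSG tumours. The part of these shifts in the results was not tested. In bulk tissue, fewer cells that use a gene and less RNA of it per cell cannot be told apart.

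Glycolysis genes were lower as a block in treated tumours. In hHGF-NSG tumours after 2 weeks 30 of the 34 tested genes fell and 2 rose (limma with Benjamini-Hochberg adjustment over all 16029 tested genes, adjusted p under 0.05), where 26.6% of all tested genes fell and 27.5% rose. In NSG tumours after 2 weeks 29 fell and 2 rose, where 28.0% of all tested genes fell and 28.1% rose. After 6 weeks 28 fell and 3 rose in hHGF-NSG tumours, where 25.5% of all tested genes fell and 25.9% rose. In NSG tumours 29 fell and 3 rose after 6 weeks, where 28.8% of all tested genes fell and 28.8% rose. The median log2 change of the 34 genes was -1.64 in hHGF-NSG and -1.63 in NSG tumours after 2 weeks, beside 0.03 over all tested genes in both hosts. After 6 weeks it was -1.50 in hHGF-NSG and -1.73 in NSG tumours, beside 0.02 and 0.03. SLC2A3 and PDK1 reached 1 FPKM in naive libraries only, PDK3 in 7 naive and 1 treated library, and PDK4 in 1 naive, 8 2-week and 7 6-week libraries. These 4 passed the filter through the side where they are high and so had to differ. Of the other 30 genes, 27 fell and 1 rose after 2 weeks in hHGF-NSG tumours and 26 fell and 1 rose in NSG tumours. After 6 weeks 25 of the 30 fell and 2 rose in hHGF-NSG tumours and 26 fell and 2 rose in NSG tumours. The deposited scaling balances the calls, with 50.9% and 50.1% of called genes higher after 2 weeks in hHGF-NSG and NSG tumours. Scaling to plain totals of human reads, an alternative added after the data were seen, gives 67.8% and 68.7% there and 63.1% and 65.7% after 6 weeks, where the deposited scaling gives 50.4% and 49.9%.

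At 2 weeks 29 genes fell in both hosts and 2 rose in both, the pyruvate dehydrogenase kinases PDK2 and PDK4, where 23.2% of all tested genes fell and 23.0% rose in both hosts. The remaining 3 were PFKFB2, PGLS and RPIA. At 6 weeks 28 fell in both hosts, the same 2 rose, and LDHB joined those 3, where 21.9% of all tested genes fell and 20.8% rose in both. Together the 35 genes took 1.95% to 2.20% of all human reads in hHGF-NSG naive libraries, 0.394% to 0.471% after 2 weeks and 0.406% to 0.439% after 6 weeks. In NSG libraries they took 1.95% to 2.13%, 0.453% to 0.476% and 0.374% to 0.393% in the same order. The 2 time points of a host share its naive libraries, and the hosts share no library but 1 estimate of the spread.

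**Figure D1:**
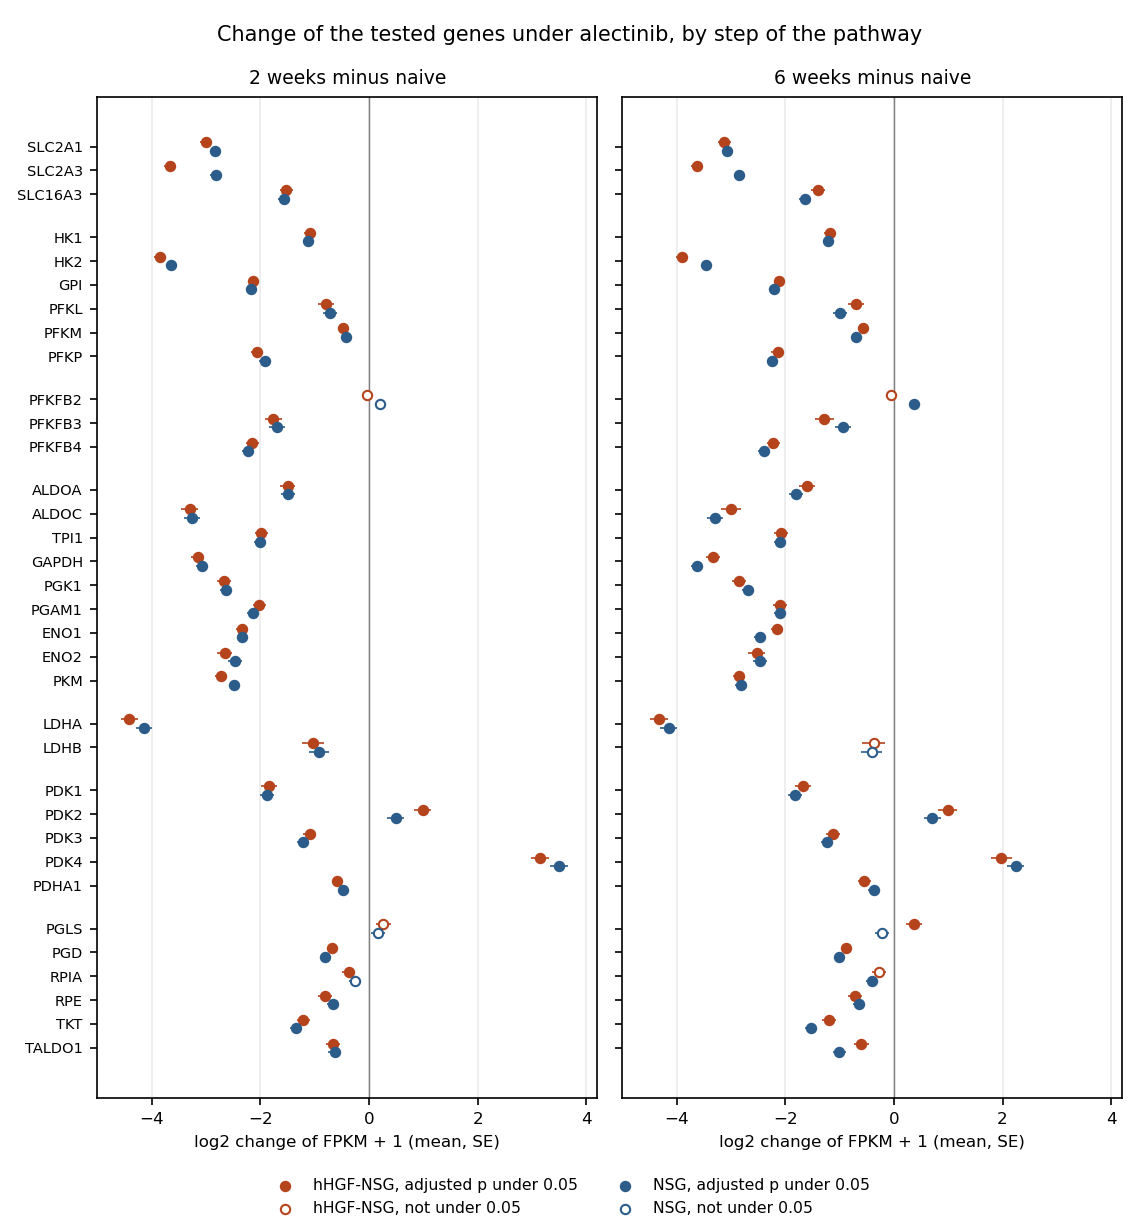
Log2 change of FPKM + 1 for the 34 tested genes, 2 weeks minus naive on the left and 6 weeks minus naive on the right, ordered by step of the pathway. Points are fitted means with standard errors, filled where the limma adjusted p is under 0.05, in hHGF-NSG and NSG tumours; LDHA lies farthest left at -4.41 and PDK4 farthest right at 3.50, while PGLS, RPIA and PFKFB2 lie near 0.

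Promoter windows are shown for 4 genes that fell by a large factor and for PDK4, the gene with the largest rise, to set the letters ACGTG, the common form of the core that HIF binds, beside the changes. These 5 were picked after their values were seen, with 1 faller that holds no match among them. The stretches are the 250 bases before a start in RefSeq's annotation, which can lie inside the gene's bounds in the table, 5′ to 3′ on the gene's strand, from RefSeq on GRCh38.p14. Capitals mark ACGTG or its reverse complement CACGT, which also lie inside the E-box letters CACGTG. The LDHA window is the first of 2 and spans chr11:18394313-18394562 on the plus strand. The ALDOC window spans chr17:28576896-28577145 on the minus strand. The PGK1 window spans chrX:78103998-78104247 on the plus strand. The SLC2A1 window spans chr1:42958869-42959118 on the minus strand, and the PDK4 window spans chr7:95596517-95596766 on the minus strand.
LDHA: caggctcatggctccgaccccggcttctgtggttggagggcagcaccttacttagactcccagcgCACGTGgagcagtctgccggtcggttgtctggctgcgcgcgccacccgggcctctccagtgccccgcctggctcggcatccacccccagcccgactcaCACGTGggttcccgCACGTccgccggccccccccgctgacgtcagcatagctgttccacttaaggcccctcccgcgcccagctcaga
ALDOC: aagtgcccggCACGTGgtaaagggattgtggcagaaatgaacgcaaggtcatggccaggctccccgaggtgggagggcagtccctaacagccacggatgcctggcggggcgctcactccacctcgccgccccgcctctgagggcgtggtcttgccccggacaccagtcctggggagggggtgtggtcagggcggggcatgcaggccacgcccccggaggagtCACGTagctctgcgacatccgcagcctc
PGK1: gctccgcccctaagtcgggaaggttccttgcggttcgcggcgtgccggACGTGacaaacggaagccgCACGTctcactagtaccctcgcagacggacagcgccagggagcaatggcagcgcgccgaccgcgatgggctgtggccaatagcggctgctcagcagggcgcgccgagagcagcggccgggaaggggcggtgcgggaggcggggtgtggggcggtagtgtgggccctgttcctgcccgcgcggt
SLC2A1: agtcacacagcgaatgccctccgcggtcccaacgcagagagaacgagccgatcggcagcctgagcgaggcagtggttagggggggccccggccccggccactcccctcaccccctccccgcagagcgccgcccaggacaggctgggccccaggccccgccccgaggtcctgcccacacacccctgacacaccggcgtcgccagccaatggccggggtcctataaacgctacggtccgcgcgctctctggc
PDK4: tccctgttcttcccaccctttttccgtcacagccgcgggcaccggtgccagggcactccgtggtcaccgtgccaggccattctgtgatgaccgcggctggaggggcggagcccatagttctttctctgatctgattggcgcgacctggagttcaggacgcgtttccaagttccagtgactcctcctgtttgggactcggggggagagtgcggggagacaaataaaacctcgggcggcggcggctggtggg
The LDHA stretch holds 3 separate matches, those of ALDOC and PGK1 hold 2 each and those of SLC2A1 and PDK4 hold 0. PKM, ENO1, PGAM1 and PFKFB4 also fell and hold none in their only window. Over the full windows of 300 bases, which add 50 bases after the start, 35% of the 60 windows of the 32 matched genes held ACGTG on either strand, beside 21.4% of 35116 windows of all genes. Among genes with a single window, 7 of 21 genes of the pathway held it, beside 21.3% of all such genes. The other core form GCGTG was in 12 of those 21 genes, beside 35.4%, and CACGTG was in 2, beside 7.28%. SLC2A3, SLC16A1 and PFKFB2 were not matched. These are matches of letters, with no test and no measure of binding.

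Both glucose transporters among the 34 tested genes fell, while SLC2A12, a carrier outside this list, rose. SLC2A1, which encodes GLUT1, the basal glucose carrier of most tumours (chr1:42925375-42959176, minus strand), stood at 161, 135 and 149 FPKM in naive hHGF-NSG tumours. It stood at 19.8, 16.8, 16.1 and 18.2 FPKM after 2 weeks and at 16.1, 15.9 and 16.3 FPKM after 6 weeks. In NSG tumours SLC2A1 had 129.7, 117, 138 and 149 FPKM when naive, 14.8, 18.4, 17.8 and 21.0 FPKM after 2 weeks and 14.9, 14.2, 13.7 and 17.1 FPKM after 6 weeks. Every treated library lay below every naive one, and the 2 treated times overlapped. The log2 change after 2 weeks was -3.00 ± 0.11 (SE) in hHGF-NSG tumours (limma adjusted p = 7.75e-15) and -2.83 ± 0.10 in NSG tumours (limma adjusted p = 5.36e-15).

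SLC2A3, which encodes the high-affinity carrier GLUT3, lost nearly all of its reads. It had 1152, 1000 and 1023 reads in naive hHGF-NSG libraries, 4, 0, 2 and 0 after 2 weeks and 1, 5 and 3 after 6 weeks. In NSG libraries SLC2A3 had 612, 549, 590 and 599 reads when naive, 11, 3, 2 and 0 after 2 weeks and 1, 1, 0 and 9 after 6 weeks. A count of 0 allows up to 3 reads, for counting error only. SLC2A3 was also the sole gene of the 34 called between hosts in naive tumours. It had 13.8, 10.6 and 11.2 FPKM in hHGF-NSG and 7.26, 5.65, 6.96 and 5.82 FPKM in NSG tumours, a log2 difference of 0.79 ± 0.11 (limma adjusted p = 0.00498), where 0.0125% of all tested genes were higher in hHGF-NSG. The groups did not overlap, but the call was lost with a pseudocount of 0.1 (a difference of 0.88, adjusted p = 0.395 by limma). It was also lost without hHGF-NSG naive replicate 1 (0.69, limma adjusted p = 0.0842) or NSG naive replicate 4 (0.75, limma adjusted p = 0.0520). Leaving out the library labelled NSG naive replicate 1 gave a difference of 0.85 (limma adjusted p = 0.00249).

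Lactate export rests on the monocarboxylate transporters. SLC16A3, which encodes MCT4, the exporter of strongly glycolytic cells, averaged 34.6 ± 3.25 FPKM in naive, 11.4 ± 1.64 FPKM in 2-week and 12.4 ± 0.615 FPKM in 6-week hHGF-NSG tumours (SD, n = 3, 4 and 3). In NSG tumours it averaged 35.7 ± 6.34, 11.2 ± 1.33 and 10.6 ± 0.635 FPKM in the same order (SD, n = 4 each). The log2 change was -1.52 ± 0.12 in hHGF-NSG tumours after 2 weeks (limma adjusted p = 1.56e-09). SLC16A3 overlaps CSNK1D on the other strand, and CSNK1D averaged 28.3 FPKM in 2-week and 21.1 FPKM in naive hHGF-NSG tumours. AC132872.3 lies over 822 bases of SLC16A3 on the same strand, at 9.91 FPKM in 2-week and 5.11 FPKM in naive hHGF-NSG tumours. SLC16A1, which encodes MCT1, had 15 reads or fewer in every library.

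At the hexokinase step the inducible isoform fell most. HK2, the hexokinase bound to mitochondria in tumours (chr2:74833981-74893359, plus strand), had 98.8, 102 and 108 FPKM in naive hHGF-NSG tumours, 7.57, 5.92, 5.31 and 6.22 FPKM after 2 weeks and 5.73, 5.93 and 6.24 FPKM after 6 weeks. In NSG tumours HK2 had 99.7, 123, 94.4 and 109 FPKM when naive, 6.55, 8.53, 7.04 and 8.35 FPKM after 2 weeks and 8.18, 8.39, 9.43 and 8.91 FPKM after 6 weeks. The treated libraries were 12.2 to 17.3 times lower in the mean and overlapped none of the naive ones. The log2 change after 2 weeks was -3.85 ± 0.11 in hHGF-NSG tumours (limma adjusted p = 1.65e-16) and -3.64 ± 0.10 in NSG tumours (limma adjusted p = 9.47e-17). HK1, the constitutive hexokinase, averaged 26.0 ± 2.45 FPKM in naive, 11.6 ± 0.503 FPKM in 2-week and 11 ± 0.644 FPKM in 6-week hHGF-NSG tumours (SD, n = 3, 4 and 3).

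The change of isoform is clearest as a share of the step. HK2 made up 79.9% ± 0.787 of the summed FPKM of HK1 and HK2 in naive, 34.8% ± 3.04 in 2-week and 35.3% ± 1.56 in 6-week hHGF-NSG tumours (SD, n = 3, 4 and 3). In NSG tumours the share was 78.5% ± 2.91, 37.2% ± 0.315 and 42.1% ± 2.67 in the same order (SD, n = 4 each). The host-averaged difference was -43.2 percentage points after 2 weeks, with an exact two-sided permutation p of 0.000408, the smallest this design allows, and p = 0.00131 after Benjamini-Hochberg adjustment over 48 exact share tests. HK1 had the higher FPKM in every treated library and HK2 in every naive one.

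GPI, which turns glucose 6-phosphate into fructose 6-phosphate, fell by 2.13 ± 0.09 on the log2 scale in hHGF-NSG and by 2.18 ± 0.08 in NSG tumours after 2 weeks (limma adjusted p = 7.49e-14 and 1.46e-14). The phosphofructokinases, which commit sugar to glycolysis, fell by unequal amounts. PFKP, the platelet type, averaged 32.5 ± 3.41, 7.01 ± 0.547 and 6.59 ± 0.385 FPKM in naive, 2-week and 6-week hHGF-NSG tumours (SD, n = 3, 4 and 3). PFKL, the liver type, averaged 32.9 ± 7.12, 18.5 ± 1.61 and 19.7 ± 2.36 FPKM in the same tumours. PFKM, the muscle type, was the lowest of the 3, with 2.54 to 2.76 FPKM in 2-week and 3.76 to 4.39 FPKM in naive hHGF-NSG tumours. Each was called lower in every comparison with naive tumours, with log2 changes after 2 weeks of -2.06 and -1.92 for PFKP, -0.79 and -0.72 for PFKL and -0.47 and -0.43 for PFKM in hHGF-NSG and NSG tumours.

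PFKP and PFKL each supplied nearly equal parts of phosphofructokinase mRNA in naive tumours, and PFKL alone supplied most of it under treatment. The PFKP share was 47.0% ± 1.87 in naive, 24.9% ± 1.03 in 2-week and 23.0% ± 1.43 in 6-week hHGF-NSG tumours. The PFKL share was 47.0% ± 3.05, 65.6% ± 1.47 and 68.4% ± 2.75 in the same tumours (SD, n = 3, 4 and 3). NSG tumours had PFKP shares of 45.5%, 25.0% and 24.2% and PFKL shares of 49.0%, 66.5% and 67.7%. Averaged over hosts, the PFKL share was 18.0 percentage points higher after 2 weeks and the PFKP share fell by 21.3 points (exact permutation p = 0.000408 for each). PFKM overlaps SENP1 on the other strand, and SENP1 averaged 3.25 FPKM in 2-week and 6.05 FPKM in naive hHGF-NSG tumours.

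The PFKFB enzymes make and remove fructose 2,6-bisphosphate, the strongest activator of phosphofructokinase. PFKFB3, the isoform with the most active kinase, had 39.2, 36.2 and 55.5 FPKM in naive hHGF-NSG tumours, 10.7, 14.0, 13.5 and 9.90 FPKM after 2 weeks and 17.3, 17.8 and 16.1 FPKM after 6 weeks. PFKFB3 had 42.2, 34.0, 39.2 and 41.5 FPKM in naive NSG tumours, 9.24, 14.1, 9.37 and 14.0 FPKM after 2 weeks and 22.2, 18.5, 21.0 and 18.1 FPKM after 6 weeks. It fell in both hosts by 2 weeks, with changes of -1.76 ± 0.16 and -1.69 ± 0.15 (limma adjusted p = 9.89e-09 and 5.56e-09). The 6-week libraries lay above every 2-week and below every naive library of their host. From 2 to 6 weeks the log2 change was 0.75 ± 0.15 in NSG tumours (limma adjusted p = 0.00118) and 0.48 ± 0.16 in hHGF-NSG tumours (limma adjusted p = 0.0669). Mouse Pfkfb3 averaged 16.5, 15.8 and 60.4 FPKM in naive, 2-week and 6-week hHGF-NSG tumours, and the part of mouse reads in the human values was not tested.

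PFKFB4, a further isoform induced by hypoxia, averaged 1.24 ± 0.124 FPKM in 2-week and 9.06 ± 1.69 FPKM in naive hHGF-NSG tumours (SD, n = 4 and 3). The change was -2.15 ± 0.12 there and -2.22 ± 0.11 in NSG tumours (limma adjusted p = 3.29e-12 and 5.24e-13). PFKFB2, best known from heart, had 2.31 to 3.36 FPKM in 2-week and 2.79 to 3.38 FPKM in naive hHGF-NSG tumours, with a change of -0.04 ± 0.09 (limma adjusted p = 0.767). In NSG tumours PFKFB2 had 3.03 to 3.73 FPKM after 2 weeks and 2.62 to 2.98 FPKM when naive, a change of 0.20 ± 0.09 (limma adjusted p = 0.0577), and it was higher after 6 weeks by 0.37 ± 0.09 (limma adjusted p = 0.00104). The PFKFB2 share of the 3 isoforms was 5.65% ± 1.46, 18.3% ± 1.40 and 13.8% ± 0.531 in naive, 2-week and 6-week hHGF-NSG tumours and 5.38% ± 0.635, 20.9% ± 4.57 and 15.6% ± 2.14 in NSG tumours. That share was 14.1 percentage points higher after 2 weeks (exact permutation p = 0.000408). PFKFB2 overlaps YOD1 on the other strand, which averaged 3.68 FPKM in 2-week and 2.43 FPKM in naive NSG tumours.

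From aldolase to pyruvate kinase, 9 of 9 genes were lower in each host after 2 and after 6 weeks. Of all tested genes, 25.5% to 28.8% fell in these comparisons. Median log2 changes of the 9 after 2 weeks were -2.66 in hHGF-NSG and -2.47 in NSG tumours. Over all tested genes the median was 0.03 in both hosts. ALDOA, ALDOC and ENO2 are among the 9 and are uncertain because of overlapping genes. GAPDH, which makes NADH from glyceraldehyde 3-phosphate and is widely used as a reference transcript (chr12:6533927-6538374, plus strand), was the most abundant of all 35 genes. It had 3079, 2571 and 2378 FPKM in naive hHGF-NSG tumours, 333, 273, 247 and 351 FPKM after 2 weeks and 262, 276 and 256 FPKM after 6 weeks. In NSG tumours GAPDH had 2521, 2847, 2820.4 and 2934 FPKM when naive, 358, 289, 334 and 336 FPKM after 2 weeks and 234, 202, 229 and 229 FPKM after 6 weeks. Treated tumours were lower by a factor of 8.45 to 12.5 in the mean, with no overlap. GAPDH took 0.0965% ± 0.0129 of human reads in 2-week and 0.724% ± 0.0730 in naive hHGF-NSG libraries (SD, n = 4 and 3).

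ENO1, the ubiquitous enolase, fell by 2.33 ± 0.11 in hHGF-NSG and by 2.33 ± 0.10 in NSG tumours after 2 weeks on the log2 scale (limma adjusted p = 2.16e-13 and 5.98e-14). ENO2, the neuronal enolase, averaged 3.98 ± 0.452 FPKM in 2-week and 30.6 ± 4.65 FPKM in naive hHGF-NSG tumours, a change of -2.66 ± 0.14. LRRC23 lies over 499 of the 9954 bases of ENO2 on the same strand, and it averaged 56.3 FPKM in 2-week and 2.91 FPKM in naive hHGF-NSG tumours. How reads were split between ENO2 and LRRC23 was not tested, so ENO2 is uncertain. Its share of enolase mRNA stayed small, at 2.41% ± 0.311 in 2-week and 3.59% ± 0.303 in naive hHGF-NSG tumours (SD, n = 4 and 3). PKM, pyruvate kinase, which makes pyruvate and ATP in the last step, averaged 40.6 ± 5.82 FPKM in 2-week and 272 ± 17.8 FPKM in naive hHGF-NSG tumours, and 45.9 ± 3.82 FPKM in 2-week and 259.9 ± 21.4 FPKM in naive NSG tumours. The PKM change was -2.72 ± 0.11 in hHGF-NSG and -2.48 ± 0.10 in NSG tumours (limma adjusted p = 2.42e-14 and 2.62e-14). Gene-level values do not separate its M1 and M2 splice forms.

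PGK1, the first ATP-yielding enzyme (chrX:77910739-78129296, plus strand), had 17.9, 16.2, 14.6 and 20.1 FPKM in 2-week and 137, 106 and 101 FPKM in naive hHGF-NSG tumours. Its change was -2.67 ± 0.12 in hHGF-NSG and -2.63 ± 0.11 in NSG tumours after 2 weeks (limma adjusted p = 2.44e-13 and 8.22e-14). ATP7A lies over 139657 of the 218558 bases of PGK1 on the same strand. It averaged 1.13 FPKM in 2-week and 1.40 FPKM in naive hHGF-NSG tumours. TPI1, which interconverts the triose phosphates, and PGAM1, phosphoglycerate mutase, changed by -1.98 ± 0.12 and -2.02 ± 0.12 in hHGF-NSG tumours and by -2.01 ± 0.11 and -2.14 ± 0.11 in NSG tumours after 2 weeks. Copies of GAPDH, TPI1 and PKM elsewhere in the genome reached group means of at most 2.28, 2.26 and 2.71 FPKM, and how reads were split between copies was not tested.

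The aldolases cleave fructose 1,6-bisphosphate. ALDOC, a hypoxia-induced isoform (chr17:28573115-28577264, minus strand), had 32.5, 23.8 and 26.3 FPKM in naive hHGF-NSG tumours, 2.16, 1.97, 1.55 and 1.84 FPKM after 2 weeks and 2.24, 2.76 and 2.64 FPKM after 6 weeks. The change after 2 weeks was -3.30 ± 0.16 in hHGF-NSG and -3.26 ± 0.15 in NSG tumours (limma adjusted p = 9.25e-13 and 3.04e-13). AC005726.1 covers ALDOC on the same strand, at 1.79 FPKM in 2-week and 3.14 FPKM in naive hHGF-NSG tumours. How reads were split between ALDOC and AC005726.1 was not tested, so ALDOC is uncertain. ALDOA, the main isoform of muscle and most tumours, averaged 2.88 ± 0.572 FPKM in 2-week and 9.94 ± 1.68 FPKM in naive hHGF-NSG tumours (SD, n = 4 and 3). ALDOA is uncertain, because AC093512.2 covers it on the same strand. ALDOA had 224, 210, 135 and 230 reads in 2-week and 625, 508 and 555 reads in naive hHGF-NSG libraries, while AC093512.2 had 275, 406, 299 and 407 reads and 20, 44 and 67 reads in the same order. With the reads of both added, the ALDOA change after 2 weeks was -0.40 in hHGF-NSG (limma adjusted p = 0.0110) and -0.42 in NSG tumours (limma adjusted p = 0.00405), instead of -1.50 and -1.49. The ALDOC share of aldolase, which has ALDOA alone in its denominator, was 39.8% ± 2.90 in 2-week and 73.5% ± 0.191 in naive hHGF-NSG tumours.

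**Figure D2:**
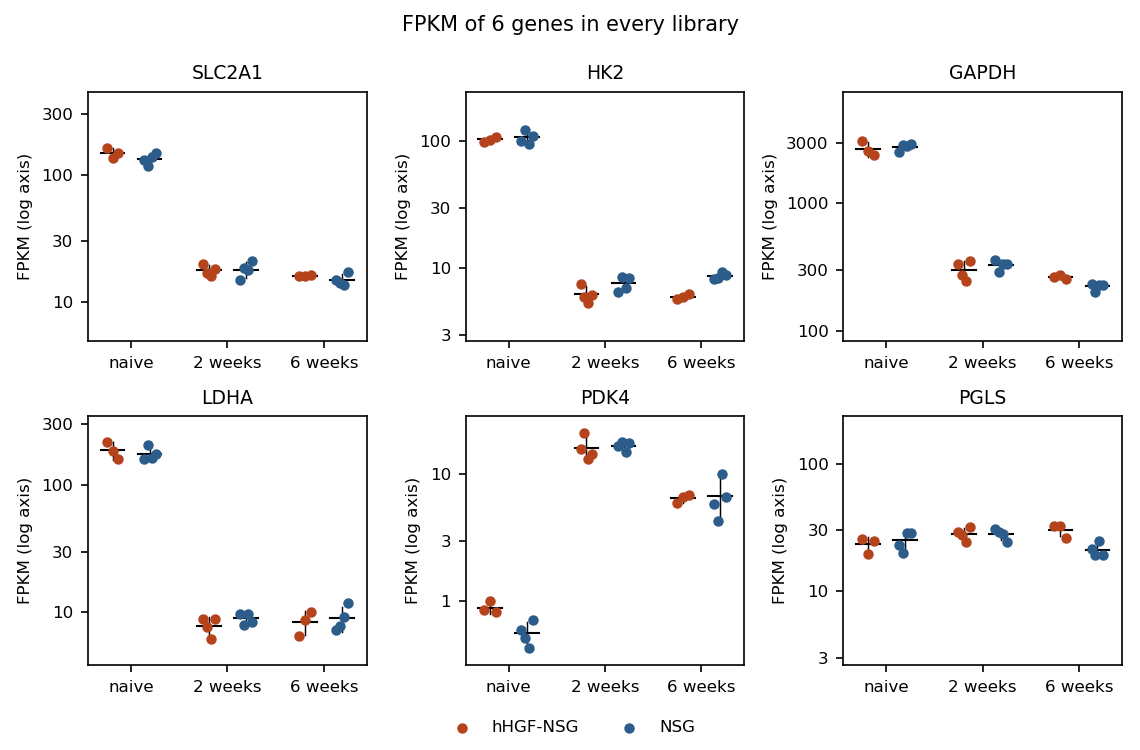
FPKM of 6 genes in each library on log axes that span the same factor, by time of treatment, in hHGF-NSG and NSG tumours; lines give the mean and SD. SLC2A1, HK2, GAPDH and LDHA were lower in every treated library, PDK4 was higher in every treated library and highest at 2 weeks, and PGLS overlapped between naive and 2-week tumours.

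LDHA showed the largest fall of all 34 genes in both hosts at both times on this scale. The gene encodes the M subunit of lactate dehydrogenase, which favours lactate production (chr11:18394388-18408425, plus strand). LDHA had 219, 184 and 159 FPKM in naive hHGF-NSG tumours, 8.82, 7.63, 6.16 and 8.87 FPKM after 2 weeks and 6.48, 8.69 and 10.1 FPKM after 6 weeks. In NSG tumours it had 160.1, 208, 162 and 174 FPKM when naive, 9.74, 8.01, 9.79 and 8.43 FPKM after 2 weeks and 7.33, 7.78, 9.28 and 11.8 FPKM after 6 weeks. The treated means were 19.4 to 23.8 times lower, and the highest treated library stood far under the lowest naive one. The changes were -4.41 ± 0.16 and -4.33 ± 0.17 in hHGF-NSG tumours after 2 and 6 weeks and -4.14 ± 0.15 and -4.15 ± 0.15 in NSG tumours (limma adjusted p = 8.01e-15, 8.03e-14, 5.87e-15 and 8.48e-15). Of the 6 listed LDHA copies elsewhere in the genome, LDHAP4 reached a group mean of 7.12 FPKM, and the split of reads between copies was not tested.

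LDHB, the H subunit, which favours the use of lactate, moved far less. It had 25.1, 19.5 and 15.1 FPKM in naive hHGF-NSG tumours, 11, 7.88, 8.79 and 8.77 FPKM after 2 weeks and 15.1, 12.5 and 17.4 FPKM after 6 weeks. In NSG tumours LDHB had 17.5, 22.6, 13.8 and 15.8 FPKM when naive, 12.7, 6.71, 9.59 and 6.61 FPKM after 2 weeks and 10.5, 13.0, 13.4 and 13.8 FPKM after 6 weeks. It fell after 2 weeks in both hosts, by 1.03 ± 0.20 in hHGF-NSG and by 0.92 ± 0.19 in NSG tumours on the log2 scale (limma adjusted p = 0.000200 and 0.000282). After 6 weeks the changes of -0.37 ± 0.21 and -0.41 ± 0.19 did not pass (limma adjusted p = 0.156 and 0.0625). The LDHB share of lactate dehydrogenase mRNA was 9.50% ± 0.798, 53.7% ± 4.23 and 64.0% ± 5.54 in naive, 2-week and 6-week hHGF-NSG tumours and 8.95% ± 1.02, 48.9% ± 5.68 and 58.6% ± 3.58 in NSG tumours. The shift of 42.1 percentage points after 2 weeks (exact permutation p = 0.000408) and that of 10.3 points in hHGF-NSG and 9.7 points in NSG tumours between 2 and 6 weeks (exact permutation p = 0.00204, adjusted 0.00297) both passed. LDHB overlaps AC010197.1 on the other strand, at 10.4 FPKM in 2-week and 9.23 FPKM in naive hHGF-NSG tumours, and the strand setting of the counts is not given in the sources used here. Mouse Ldhb averaged 11.2, 23.0 and 58.7 FPKM in naive, 2-week and 6-week hHGF-NSG tumours, and its part in the human LDHB level was not tested.

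**Figure D3:**
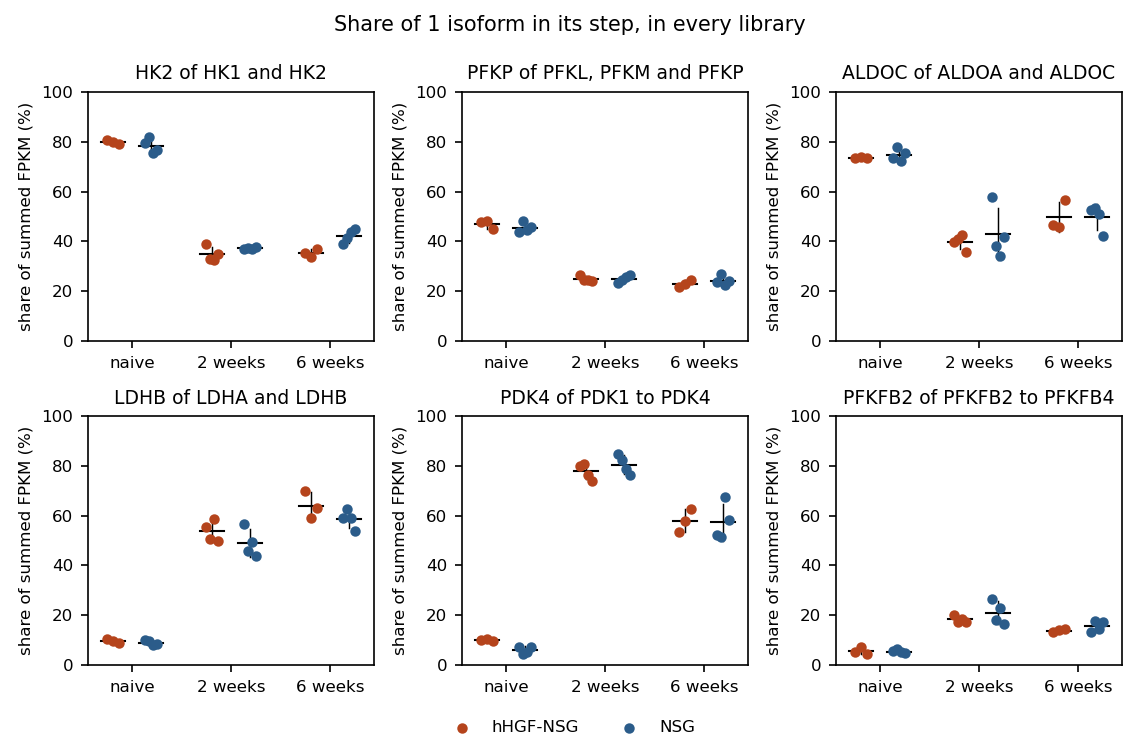
Share of 1 isoform in the summed FPKM of its step, in percent, for each library by time of treatment in hHGF-NSG and NSG tumours; lines give the mean and SD. HK2, PFKP and ALDOC had smaller shares under treatment, and LDHB, PDK4 and PFKFB2 larger ones; the LDHB share averaged 53.7% in 2-week and 9.50% in naive hHGF-NSG tumours.

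The isoforms of pyruvate dehydrogenase kinase moved in opposite directions in both hosts at both times. PDK1, PDK3 and PDK4 passed the filter through the side where they are high, so their p-values against naive tumours are no independent support. PDK4, the kinase induced by fasting and fat use (chr7:95583499-95596491, minus strand), had 0.85, 1.00 and 0.819 FPKM in naive hHGF-NSG tumours, 15.8, 20.9, 13.1 and 14.4 FPKM after 2 weeks and 5.88, 6.66 and 6.79 FPKM after 6 weeks. In NSG tumours PDK4 had 0.598, 0.519, 0.434 and 0.715 FPKM when naive, 16.7, 17.8, 15.0 and 17.5 FPKM after 2 weeks and 5.78, 4.25, 10.1 and 6.65 FPKM after 6 weeks. The 3 times did not overlap in either host. PDK4 was 18.1 times higher in hHGF-NSG and 29.6 times higher in NSG tumours after 2 weeks, with log2 changes of 3.15 ± 0.17 and 3.50 ± 0.16 (limma adjusted p = 4.12e-12 and 2.15e-13). From 2 to 6 weeks it fell by 1.18 ± 0.17 in hHGF-NSG and by 1.26 ± 0.16 in NSG tumours on the log2 scale (limma adjusted p = 9.10e-05 and 1.25e-05). At 6 weeks PDK4 was still 7.24 and 11.8 times its naive level. Mouse Pdk4 changed by 0.60 in hHGF-NSG and 0.65 in NSG tumours after 2 weeks (limma adjusted p = 0.293 and 0.262) and by 1.30 and 2.22 after 6 weeks (limma adjusted p = 0.0159 and 0.000338), and its part in the human level was not tested.

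PDK2, the most widely expressed kinase of the family, averaged 3.40 ± 0.510 FPKM in 2-week and 1.23 ± 0.405 FPKM in naive hHGF-NSG tumours (SD, n = 4 and 3). It rose by 0.99 ± 0.16 in hHGF-NSG and by 0.49 ± 0.15 in NSG tumours (limma adjusted p = 2.04e-05 and 0.00729). PDK1, the kinase that HIF-1 induces, had 0.410, 0.359, 0.326 and 0.397 FPKM in 2-week and 4.36, 4.13 and 3.29 FPKM in naive hHGF-NSG tumours, a change of -1.84 ± 0.14 (limma adjusted p = 6.86e-10). PDK3, likewise induced by hypoxia, fell by 1.09 ± 0.12 in hHGF-NSG and by 1.21 ± 0.11 in NSG tumours (limma adjusted p = 1.66e-07 and 1.12e-08). PDHA1, the catalytic subunit that the kinases act on, fell by 0.58 ± 0.11 in hHGF-NSG and by 0.47 ± 0.10 in NSG tumours after 2 weeks (limma adjusted p = 0.000131 and 0.000478).

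PDK1 and PDK3 held most kinase mRNA in naive tumours and PDK4 held most of it after 2 weeks. All 3 reached 1 FPKM mainly on 1 side, so the p-values of their shares against naive tumours add no independent support. The PDK1 share was 44.8% ± 6.67, 1.85% ± 0.318 and 4.90% ± 1.32 in naive, 2-week and 6-week hHGF-NSG tumours. The PDK3 share was 31.1% ± 2.36, 3.71% ± 0.484 and 6.46% ± 0.765 in the same tumours. PDK4 made up 10.1% ± 0.298, 77.7% ± 3.06 and 57.9% ± 4.65 (SD, n = 3, 4 and 3), and in NSG tumours 6.02% ± 1.47, 80.4% ± 3.77 and 57.3% ± 7.37 (SD, n = 4 each). The host-averaged PDK4 share was 71.0 percentage points higher after 2 weeks than in naive tumours, and it fell by 21.5 points between 2 and 6 weeks (exact permutation p = 0.000408 for each). The PDK2 share was 30.7% ± 6.42 after 6 weeks in hHGF-NSG tumours and 32.4% ± 5.67 in NSG tumours, 14.9 points higher than in naive tumours (exact permutation p = 0.00143, the smallest possible with 1400 arrangements).

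Of 48 tests of isoform shares, 39 passed an adjusted p of 0.05. They were 15 of 16 shares after 2 weeks, 15 of 16 after 6 weeks and 9 of 16 between the 2 treated times. Shares of 1 step sum to a whole, so tests of its isoforms are not independent. The tally includes SLC2A3, PDK1, PDK3 and PDK4, which passed the filter through the side where they are high. It also includes SLC16A3 beside SLC16A1, which was too low to be tested.

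The pentose phosphate genes were lower by less than the glycolysis enzymes in the median, a difference that was not tested. Their median log2 change was -0.67 in hHGF-NSG and -0.65 in NSG tumours after 2 weeks and -0.66 and -0.83 after 6 weeks. TKT, the transketolase that links the pathway to glycolysis, had 21.2, 23.9, 19.3 and 25.7 FPKM in 2-week and 56.3, 50.4 and 52.6 FPKM in naive hHGF-NSG tumours. TKT was the largest faller of this arm, with changes of -1.21 ± 0.12 in hHGF-NSG and -1.34 ± 0.11 in NSG tumours after 2 weeks (limma adjusted p = 4.36e-08 and 2.80e-09). TALDO1, the transaldolase, changed by -0.66 ± 0.13 and -0.63 ± 0.12 (limma adjusted p = 0.000193 and 0.000121), and RPE, which forms xylulose 5-phosphate, by -0.81 ± 0.12 and -0.67 ± 0.11 (limma adjusted p = 7.79e-06 and 3.14e-05).

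PGD, which yields NADPH in the oxidative arm, averaged 32.6 ± 4.03 FPKM in 2-week and 52.7 ± 1.41 FPKM in naive hHGF-NSG tumours, a change of -0.68 ± 0.09 (limma adjusted p = 2.55e-06). In NSG tumours PGD changed by -0.81 ± 0.09 (limma adjusted p = 7.90e-08). RPIA, which forms ribose 5-phosphate, fell by 0.37 ± 0.12 in hHGF-NSG tumours (limma adjusted p = 0.0138) and changed by -0.26 ± 0.11 in NSG tumours (limma adjusted p = 0.0532). PGLS, the lactonase of the oxidative arm, had 28.9, 27.4, 24.1 and 31.9 FPKM in 2-week and 25.6, 19.5 and 24.6 FPKM in naive hHGF-NSG tumours, which overlapped. Its change was 0.26 ± 0.14 in hHGF-NSG and 0.16 ± 0.13 in NSG tumours after 2 weeks (limma adjusted p = 0.107 and 0.278). After 6 weeks it was 0.37 ± 0.14 in hHGF-NSG tumours (limma adjusted p = 0.0365) and -0.22 ± 0.13 in NSG tumours (limma adjusted p = 0.138). The 6-week call in hHGF-NSG tumours was lost without the filter on low values, without hHGF-NSG naive replicate 2 and without hHGF-NSG 6 weeks replicate 1 or 2. Under plain total scaling, which moves the median of all tested genes by 0.22 in both hosts after 2 weeks, PGLS was called higher at 2 weeks in hHGF-NSG (0.50) and NSG tumours (0.43). The RPIA calls in hHGF-NSG tumours after 2 weeks and in NSG tumours after 6 weeks were lost under it, with changes of -0.14 and -0.19.

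The 6-week tumours were also set against the 2-week tumours of the same host. In hHGF-NSG tumours 1 of 34 genes fell and 1 rose, where 6.45% of all tested genes fell and 2.63% rose. PDK4 fell, and LDHB rose by 0.66 ± 0.20 (limma adjusted p = 0.0431), a call that was lost under 14 of 28 alternatives. In NSG tumours 7 fell and 1 rose, where 11.9% of all tested genes fell and 8.43% rose. The share of the 34 genes that fell was not tested against that of all genes. The 7 were PDK4, GAPDH, PGLS, TALDO1, PKM, PFKP and PFKM, and the 1 that rose was PFKFB3. GAPDH fell by 0.56 ± 0.11 on the log2 scale (limma adjusted p = 0.00161) and PKM by 0.35 ± 0.10 (limma adjusted p = 0.0182). Without NSG 2 weeks replicate 2 the count of genes that fell was 2.

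Hosts were compared at each time. At 2 weeks and at 6 weeks 0 of the 34 genes and 0 of all 16029 tested genes were called between hHGF-NSG and NSG tumours by limma, where 681 and 1946 genes had an unadjusted p under 0.05. Of the 34 genes, 1 and 5 had such a p, and limma voom on recovered reads called 0 of them and 0 and 2 of all genes. The test of whether the response to alectinib differed between hosts called 0 of the 34 genes and 0 of all genes by limma and by voom, with 1639 and 1590 genes at an unadjusted p under 0.05, 5 of the 34 among them by limma. SLC2A3 came nearest, with responses of -3.66 in hHGF-NSG and -2.82 in NSG tumours after 2 weeks (limma F-test adjusted p = 0.124). It passed without the library labelled NSG naive replicate 1 (limma adjusted p = 0.0373) and without the filter (limma adjusted p = 0.0347). Treated libraries of both hosts held at most 11 SLC2A3 reads, so these responses are nearly its naive levels. The host difference in response is thus close to the naive one of 0.79 and is no independent support. The responses of PGLS and PFKFB2 after 6 weeks differed between hosts by 0.60 ± 0.19 and -0.42 ± 0.13 (limma adjusted p = 0.235 for each). HK2 responses of -3.90 and -3.46 after 6 weeks differed by -0.44 ± 0.15 (limma adjusted p = 0.240). With NSG naive replicate 1 left out, NSG tumours still had 29 fallen and 2 risen genes after 2 weeks and 29 and 3 after 6 weeks.

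Other genes of the pathway were 49 listed and 32 tested. After 2 weeks 13 fell and 5 rose in hHGF-NSG tumours, where 26.6% of all tested genes fell and 27.5% rose. In NSG tumours 14 fell and 4 rose, where 28.0% of all tested genes fell and 28.1% rose, and 14 and 3 when NSG naive replicate 1 was left out. The medians were -0.12 in hHGF-NSG and -0.19 in NSG tumours. PGM1, which links glycogen to glycolysis, averaged 3.18 FPKM in 2-week and 13.4 FPKM in naive hHGF-NSG tumours, a change of -1.79 ± 0.14 (limma adjusted p = 8.38e-10). PGAM5, a mitochondrial phosphatase of the mutase family, PRPS1, which makes phosphoribosyl pyrophosphate, and PCK2, mitochondrial phosphoenolpyruvate carboxykinase, changed by -0.70, -0.75 and -0.61 in hHGF-NSG tumours and by -0.91, -0.68 and -0.63 in NSG tumours. SLC2A12, which encodes the carrier GLUT12, averaged 6.33 FPKM in 2-week and 1.06 FPKM in naive hHGF-NSG tumours and 7.51 FPKM in 2-week and 1.36 FPKM in naive NSG tumours. It rose by 1.82 ± 0.15 in hHGF-NSG and by 1.84 ± 0.14 in NSG tumours (limma adjusted p = 3.56e-09 and 8.87e-10). RBKS, ribokinase, rose by 1.48 ± 0.11 in hHGF-NSG and by 1.19 ± 0.11 in NSG tumours (limma adjusted p = 8.51e-10 and 6.60e-09).

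Regulators and other hypoxia genes, 24 listed and 23 tested, held 15 that fell and 3 that rose in hHGF-NSG tumours after 2 weeks, beside the 26.6% and 27.5% of all tested genes. In NSG tumours 14 fell and 4 rose, beside 28.0% and 28.1%, and 14 and 3 with NSG naive replicate 1 left out. NDRG1, a stress gene induced by hypoxia, averaged 16.8 FPKM in 2-week and 255 FPKM in naive hHGF-NSG tumours, a change of -3.85 ± 0.12 (limma adjusted p = 6.88e-16). EGLN3, a HIF prolyl hydroxylase that HIF itself induces, averaged 14.1 FPKM in 2-week and 166 FPKM in naive hHGF-NSG tumours, a change of -3.48 ± 0.12 (limma adjusted p = 4.67e-15). CA9, the carbonic anhydrase used as a hypoxia marker, was at 0 in every 2-week hHGF-NSG library and averaged 8.60 FPKM in naive ones, and in NSG tumours it averaged 0.175 FPKM after 2 weeks and 7.71 FPKM when naive. MYCN, a MYC family factor, averaged 1.01 FPKM in 2-week and 7.57 FPKM in naive hHGF-NSG tumours, a change of -2.06 ± 0.25 (limma adjusted p = 5.77e-07). EGLN2, a prolyl hydroxylase that hypoxia does not induce, rose by 0.94 ± 0.16 in hHGF-NSG and by 1.36 ± 0.15 in NSG tumours (limma adjusted p = 4.49e-05 and 1.28e-07). EGLN2 reached 1 FPKM in treated libraries only and CA9 in naive libraries only. Both passed the filter through the side where they are high, so their calls in the counts above are no independent support. ANKRD37, a HIF target in other cells, rose by 0.45 ± 0.10 and 0.25 ± 0.09 after 2 weeks (limma adjusted p = 0.000644 and 0.0259), while NDRG1, EGLN3 and CA9 were lower. HIF1A, the factor itself, was picked after its values were seen, and it changed by -1.44 ± 0.10 in hHGF-NSG and by -1.60 ± 0.09 in NSG tumours (limma adjusted p = 1.64e-10 and 8.14e-12).

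The mouse table gave the host's own genes in 20 libraries of the same tumours, with 34 orthologues that had a unique symbol. After 2 weeks 14 fell and 0 rose in hHGF-NSG tumours, where 3.56% of 14287 tested mouse genes fell and 3.49% rose, and 14 fell and 1 rose in NSG tumours, where 4.48% fell and 3.32% rose. After 6 weeks 10 fell and 8 rose in hHGF-NSG tumours, where 8.12% of all tested genes fell and 9.67% rose, and 11 fell and 8 rose in NSG tumours, where 8.59% fell and 8.81% rose. Without hHGF-NSG naive replicate 1 the 14 in hHGF-NSG tumours were 9, without hHGF-NSG 6 weeks replicate 2 the 8 were 4, and without NSG naive replicate 4 the 11 were 7. With NSG naive replicate 1 left out, 16 fell and 2 rose in NSG tumours after 2 weeks and 12 fell and 9 rose after 6 weeks. Of the hHGF-NSG orthologues without a rise by limma, 5 were higher at an unadjusted p under 0.05. Mouse Slc2a1 fell by 2.08 ± 0.29 in hHGF-NSG and by 2.09 ± 0.29 in NSG tumours after 2 weeks on the log2 scale (limma adjusted p = 0.000334 and 0.000243), and Slc16a3 by 2.37 ± 0.36 and 2.01 ± 0.36 (limma adjusted p = 0.000766 and 0.00199).

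Other steps differed between the tables. Mouse Ldha changed by -0.64 ± 0.17 in hHGF-NSG tumours after 2 weeks (limma adjusted p = 0.0324), beside -4.41 for human LDHA, and mouse Hk2 by -0.48 ± 0.29 (limma adjusted p = 0.332), beside -3.85 for human HK2. Mouse Tkt and Taldo1 were higher after 6 weeks, by 0.98 ± 0.30 and 1.08 ± 0.20 in hHGF-NSG tumours (limma adjusted p = 0.0262 and 0.00110), beside -1.20 and -0.60 for the human genes. The difference between species was not tested. How reads were assigned to a species is not given in the sources used here.

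**Figure D4:**
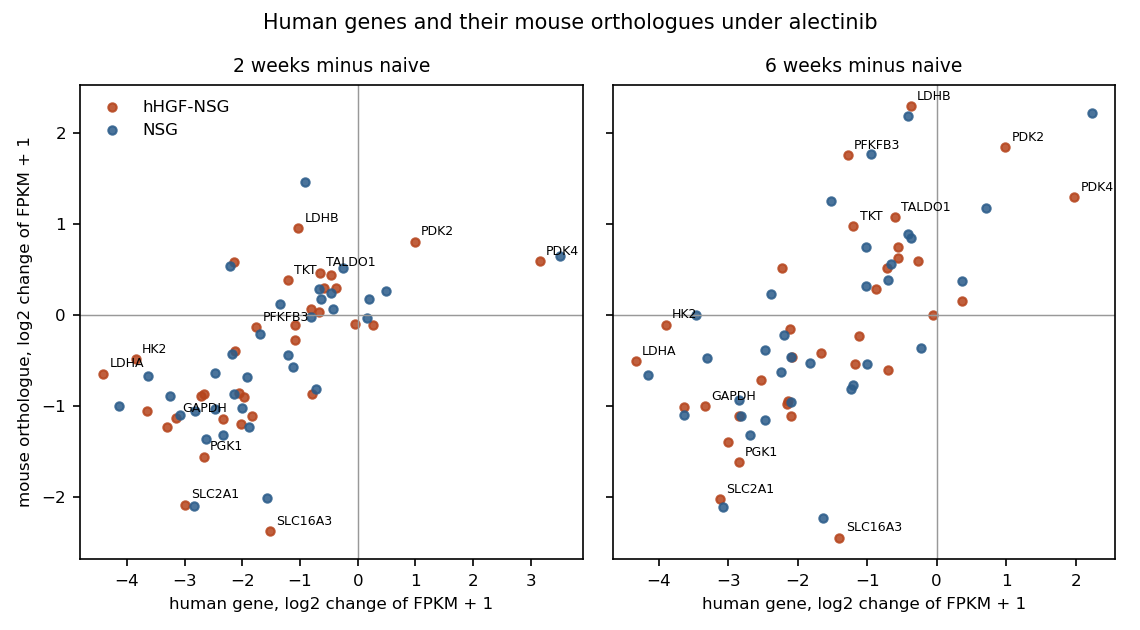
Log2 change of FPKM + 1 of each human gene on the horizontal axis and of its mouse orthologue on the vertical axis, after 2 weeks on the left and 6 weeks on the right, in hHGF-NSG and NSG tumours, with some genes named. LDHA and HK2 lie far to the left with mouse changes nearer to 0, SLC2A1 and PGK1 lie low on both axes, and LDHB and PFKFB3 lie high on the mouse axis after 6 weeks.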

How the data were processed

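FPKM values per gene were deposited by the authors in a human table (22 libraries) and a mouse table (20, with NSG naive replicate 2 and NSG 6 weeks replicate 4 not analysed there). DESeq2, GRCh38, hg38 and mm10 stand in the submitters' processing notes without a role. What aligner, annotation, strand setting and species separation were used is not given in the sources used here. Divided by a fitted step per read, FPKM gave whole reads for 100.0% of entries (tolerance 0.05): 10688632 to 19065656 human and 895826 to 5766509 mouse reads per library. Genes at 1 FPKM in at least 3 libraries (16029) were fitted as log2(FPKM + 1), which understates changes of low genes, over all 6 groups with limma 3.58.1 in R 4.3.3, and p-values were adjusted by Benjamini-Hochberg (threshold 0.05). Isoform shares were compared by exact two-sided permutation within hosts (Python 3.11.15, numpy 2.4.6, pandas 2.3.3, scipy 1.17.1, matplotlib 3.10.9), and scripts were tested on simulated data. Beside the listed genes, up to 4 related genes and regulators per direction were named, by the largest smaller change of both hosts at 2 weeks. Members and lists were chosen with earlier results of these data known. Alternatives were a pseudocount of 0.1, no filter, median ratio scaling, voom on recovered reads, a replicate block and each library left out. Plain total scaling and the added ALDOA reads were chosen after seeing the data.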

Additional observations from a re-analysis of the deposited data

Results flagged for a closer look

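Of 127 groups of 4 libraries, 7 held a library whose gap to the nearest other, over the range of the group, was above Dixon's 95% critical value; chance alone marks about 1 in 20 groups. GAPDH was low in NSG 6 weeks replicate 2, at 202.0 FPKM beside 229.0 to 234.0 FPKM in the others. PGAM1 was low in NSG 2 weeks replicate 2, at 17.9 FPKM beside 20.2 to 20.6 FPKM. ENO2 was low in NSG 6 weeks replicate 3, at 2.5 FPKM beside 4.16 to 4.42 FPKM. PDK3 was high in NSG 2 weeks replicate 4, at 1.15 FPKM beside 0.517 to 0.572 FPKM. PDHA1 was high in hHGF-NSG 2 weeks replicate 4, at 5.81 FPKM beside 5.67 to 5.69 FPKM, and in NSG 6 weeks replicate 3, at 6.91 FPKM beside 5.81 to 5.91 FPKM. RPE was low in hHGF-NSG 2 weeks replicate 2, at 9.93 FPKM beside 12.3 to 12.7 FPKM.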

How the results depend on the processing

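Counts of the 34 genes that fell after 2 or 6 weeks stayed within 1.5 times under every alternative and library left out; of the counts that rose, NSG after 2 weeks became 4 under plain total scaling. That scaling moves the median of all genes by 0.22, 0.16, 0.22 and 0.20 (hHGF-NSG 2 and 6 weeks, NSG 2 and 6 weeks). PFKFB2 was then called higher in NSG tumours after 2 weeks (0.40), and PDHA1 lost its call after 6 weeks (-0.17). From 2 to 6 weeks in hHGF-NSG tumours, 2 genes fell under plain total scaling and with the ALDOA reads added. The count that rose there was 0 without the filter and under plain total scaling, 2 by voom, and 0 to 2 with a library left out. In NSG tumours 4 fell without the filter, 2 rose by voom, and 2 to 7 fell and 1 to 2 rose with a library left out. In naive tumours 0 of the 34 differed between hosts with a pseudocount of 0.1 and 0 to 1 with a library left out, and the response differed for 1 without the filter and for 0 to 1 with a library left out. Over all genes, hosts differed in naive tumours in 5 with a pseudocount of 0.1, in 25 without the filter and in 0 to 40 with a library left out, 40 being without NSG naive replicate 1. At 2 weeks they differed in 2 without the filter and in 0 to 1 with a library left out. At 6 weeks it was 1 without the filter, 2 by voom and 0 to 8, and the response differed in 9 without the filter and in 0 to 7. Mouse orthologues that fell ranged from 9 to 16 (hHGF-NSG 2 weeks) and 7 to 12 (NSG 6 weeks), and those that rose from 0 to 1, 4 to 8 and 1 to 2 (hHGF-NSG 2 weeks, hHGF-NSG 6 weeks, NSG 2 weeks). The SLC16A3 share was at least 99.4% in every library, beside SLC16A1 at 0.185 FPKM or less. It was 0.204 points higher after 2 weeks and 0.117 points higher after 6 weeks than in naive tumours. Measured as a log2 ratio, the SLC16A3 share reversed to -1.435 after 2 weeks and -1.424 after 6 weeks. As shares of reads, PDK2 reversed from -1.13 to 7.591 points after 2 weeks and PFKFB3 from 3.58 to -0.887 points after 6 weeks. The cause of these changes was not tested.

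Replicate numbers did not pair libraries: the deviations of same-numbered libraries correlated at -0.329 to 0.265 (median -0.0237, 51 pairs) and those of other numbers at -0.352 to 0.28. With a replicate block, 0 of the 34 genes rose from 2 to 6 weeks in hHGF-NSG tumours and 1 gene of all differed between hosts in naive tumours.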
